A study of Homo sapiens with 372 samples.

Results

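The translation initiation factors were described here as the genes of the deposited table whose symbol starts with EIF and a digit from 1 to 6. The rule found 51 of the 9664 genes listed. Of these, 45 are initiation factors in the wider sense and 6 regulate them: the 4E-binding proteins EIF4EBP1, EIF4EBP2 and EIF4EBP3 and the eIF2 kinases EIF2AK1, EIF2AK2 and EIF2AK4, which are described apart. By role the 45 factors were 4 of the eIF1 and eIF1A group, 5 of the eIF2 group, 5 subunits of eIF2B, 14 of eIF3, 11 of the eIF4 group and 6 of the eIF5 and eIF6 group. All 51 members matched a protein-coding gene of GENCODE 44 under the same symbol and passed the detection limit of the study, which asks for some signal in more than 30% of a condition's cells. EIF5A lies on chromosome 17 at 7306999 to 7312463, EIF2S1 on 14 at 67360328 to 67386516, EIF5 on 14 at 103333544 to 103345025, EIF1 on 17 at 41688885 to 41692668 and EIF4A2 on 3 at 186783205 to 186789897 (hg38, whole gene models with exons, introns and UTRs). EIF2AK3 and EIF4E3 are not among the genes listed and were not analysed here.

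Single A2780 cells, a human ovarian carcinoma line, were captured on the Fluidigm C1 and their full-length cDNA was sequenced. The 6 conditions were untreated control (Ctrl), paclitaxel at 5 nM for 16 h (Pac16h) or 48 h (Pac48h), celecoxib at 75 µM for 2 h (Cele2h) or 16 h (cele16h), and 5 nM paclitaxel with 75 µM celecoxib for 16 h (PacCele16h). Paclitaxel stabilises microtubules and celecoxib inhibits cyclooxygenase 2. The table held 46 Ctrl, 56 Pac16h, 53 Pac48h, 63 Cele2h, 61 cele16h and 59 PacCele16h cells, 338 of the 372 cells labelled. Of the listed cells 1, in PacCele16h, is noted as 0 or debris in its label and was kept. All cells of a condition carry 1 code in their descriptions that no other condition has, and the labels name no separate cultures or captures. Condition and whatever that code stands for therefore cannot be told apart, no test between conditions was made, and every SD below is a spread over the cells of 1 condition and not a replicate error.

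Values are E-values, E = log2(N/10 + 1), where N is the TPM of a gene after the authors scaled each cell to its spike-in RNA. They are given as deposited and on a same-total scale, on which each cell was first brought to the same summed N (986662, the median of all cells). The same-total scale removes the spike-in factor of a cell. A difference in mean E-value of over 0.585, log2 of 1.5, is called past the limit, and because of the added 1 it understates the change of genes with low values. Read depth is unknown, as the table holds no counts. Cells had between 4746 and 8499 genes detected, and the median summed N of a condition relative to Ctrl was 0.504 in Pac16h, 0.643 in Pac48h, 0.591 in Cele2h, 0.348 in cele16h and 1.40 in PacCele16h. Of the cell type markers looked up, 2 of 9 on an epithelial and ovarian carcinoma list (KRT18 and VIM, of which VIM is not an epithelial marker) are among the genes listed. So are 1 of 4 leukocyte, 2 of 4 fibroblast and 0 of 3 endothelial ones, and PAX8, WT1, MUC16 and EPCAM are not. Among those listed, VIM had mean E-values between 1.90 and 3.70, KRT18 between 0.45 and 1.11 and the leukocyte marker LYZ between 0.11 and 0.24. The fibroblast markers COL3A1 and LUM had between 0.88 and 1.89 and between 0.48 and 0.88, and COL3A1 was above KRT18 in every condition.

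Initiation joins the small ribosomal subunit to an mRNA. eIF2, a heterotrimer of EIF2S1 (alpha), EIF2S2 (beta) and EIF2S3 (gamma), carries the initiator tRNA with GTP, and eIF2B recharges it with GTP after each round. eIF1 and eIF1A keep the scanning small subunit open, and eIF3 is the large scaffold that links it to eIF4F, the complex of the cap-binding protein eIF4E, the scaffold eIF4G and the helicase eIF4A, which is helped by eIF4B and eIF4H. eIF5 triggers GTP hydrolysis on eIF2 at the start codon, eIF5B joins the large subunit, and eIF6 holds free large subunits apart. The 4E-binding proteins compete with eIF4G for eIF4E, and the eIF2 kinases phosphorylate eIF2 alpha, which turns eIF2 into an inhibitor of eIF2B and lowers initiation in general while some mRNAs, such as that of ATF4, are translated more.

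Many mRNAs of the translation machinery start with a terminal oligopyrimidine (TOP) tract, a C followed by a run of C and T, and are known to be translated under the control of mTOR. The annotated transcription starts of the members were therefore searched for a C followed by at least 4 bases that are each C or T, on the transcribed strand only, in the RefSeq promoters of GRCh38.p14. A promoter was found for 42 members, 38 of them factors. Of these 38, 9 had such a start (23.7%), against 4.07% of all 35116 promoters, 7.72% of the promoters of 7575 genes past the detection limit and 71.2% of those of 66 cytosolic ribosomal protein genes. The 9 starts are shown with 30 bases before and 20 bases from the start, with the tract in capitals, because they sort the factors by a feature that no expression value entered. EIF2S1 and EIF4A1 follow as examples with no such start. EIF4A1 is set against the TOP-start gene EIF4A2 in the results below, and EIF2S1 is in a complex with EIF2S3. For EIF2S2, which is set against EIF2S1 in a ratio below, no promoter was found, so that its start is unknown here.
EIF2S3: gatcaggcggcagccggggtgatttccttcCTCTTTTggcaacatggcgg
EIF2A: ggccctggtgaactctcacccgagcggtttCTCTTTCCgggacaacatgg
EIF2D: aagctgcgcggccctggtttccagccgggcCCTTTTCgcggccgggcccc
EIF3D: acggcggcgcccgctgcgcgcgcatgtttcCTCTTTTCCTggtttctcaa
EIF3F: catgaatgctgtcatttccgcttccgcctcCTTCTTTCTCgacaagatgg
EIF3K: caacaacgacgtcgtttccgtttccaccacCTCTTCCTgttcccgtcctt
EIF3M: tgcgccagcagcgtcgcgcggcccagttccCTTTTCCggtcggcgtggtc
EIF4A2: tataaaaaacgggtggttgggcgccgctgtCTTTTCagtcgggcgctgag
EIF4B: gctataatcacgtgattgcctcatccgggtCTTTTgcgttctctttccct
EIF2S1: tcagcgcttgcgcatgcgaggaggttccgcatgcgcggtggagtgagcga
EIF4A1: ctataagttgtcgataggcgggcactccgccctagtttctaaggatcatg
On GRCh38.p14 these stretches lie at chrX:24054926-24054975 on the plus strand (EIF2S3), chr3:150546757-150546806 plus (EIF2A), chr1:206612446-206612495 minus (EIF2D), chr22:36529147-36529196 minus (EIF3D), chr11:7987307-7987356 plus (EIF3F), chr19:38619158-38619207 plus (EIF3K), chr11:32583801-32583850 plus (EIF3M), chr3:186783547-186783596 plus (EIF4A2), chr12:53006426-53006475 plus (EIF4B), chr14:67360298-67360347 plus (EIF2S1) and chr17:7572795-7572844 plus (EIF4A1). The tracts were between 5 bases long in EIF4B and 10 bases in EIF3D and EIF3F. All are first-exon starts as annotated, not starts measured in A2780 cells.

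In untreated cells the factors were well above the average gene. The median factor had a mean E-value of 4.24 on the deposited scale, against 1.45 for all 9655 genes past the detection limit. EIF5A, which carries the amino acid hypusine and helps ribosomes through difficult peptide bonds, led with 8.50 ± 0.84 (SD, n = 46 cells), above 99.7% of the genes. EIF5 followed at 7.13 ± 0.73, EIF1 at 6.73 ± 0.65, EIF3I at 6.62 ± 1.32, EIF3M at 6.61 ± 1.24, EIF3K at 6.59 ± 0.64 and EIF4A1 at 6.49 ± 0.91. From EIF5 to EIF4A1, neighbours in this order were closer than the spread over cells. At the other end were EIF5A2 with 0.84 ± 1.12 and EIF5AL1 with 0.83 ± 0.41. EIF5A and EIF5AL1, EIF1 and EIF1B, and EIF3C and EIF3CL are close copies, and RSEM may have divided reads between them, so that the values within each pair are uncertain.

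TPM is scaled to transcript length, and levels within a complex are set side by side on that basis. Whether capture and amplification of the cDNA also depended on transcript length was not tested. Differences between the genes of a complex are therefore a description of these values, whose means include cells without signal. In Ctrl EIF2S1 had a mean E-value of 5.95, against 3.49 for EIF2S2 and 3.11 for EIF2S3. The protein complex holds them in equal number, but the values are of mRNA only. Within eIF3 the large scaffold subunits EIF3A and EIF3B had 3.35 and 3.28, whereas EIF3I, EIF3M and EIF3K were among the highest members, as given above. In eIF4F the cap-binding EIF4E had 6.19 and the helicase EIF4A1 6.49, well above the scaffold EIF4G1 with 3.32 and its relative EIF4G3 with 1.22. The inhibitor EIF4EBP1 had 5.98 ± 1.48, close to its target EIF4E at 6.19 ± 0.86.

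On the deposited scale nearly all factors were below Ctrl in the single-drug conditions and most were above it in the combination, which is also what the summed N of the cells did. Of the 45 factors, 29 were lower past the limit in Pac16h and 0 higher, where 37.3% of all 9655 genes were lower and 0.0932% higher. In Pac48h 26 were lower and 0 higher (26.6% and 0.922% of all genes), in Cele2h 26 and 0 (25.7% and 1.12%), and in cele16h 39 and 0 (43.9% and 0.383%). In PacCele16h 13 were higher and 1, EIF1AD, lower, where 30.4% of all genes were higher and 1.76% lower. Against Pac16h the combination had 42 factors higher and 0 lower (62.5% and 0.0311% of all genes), and against cele16h again 42 and 0 (66.0% and 0.0414%). The comparisons with Ctrl share the same 46 control cells.

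Genes with low values cannot fall far on this scale, and the factors are mostly not low. Among genes with a mean E-value of at least 2 over all cells, 3134 in number, 74.0% were lower in Pac16h, 57.2% in Pac48h, 53.2% in Cele2h and 85.0% in cele16h, and of the 36 factors at such a level 27, 23, 24 and 34 were lower. In PacCele16h 50.0% of these genes were higher, and 12 of the 36 factors. As a share, the factors lower past the limit were closest to genes of a like level in Pac16h, and those higher past it in PacCele16h were fewer than among such genes.

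**Figure D1:**
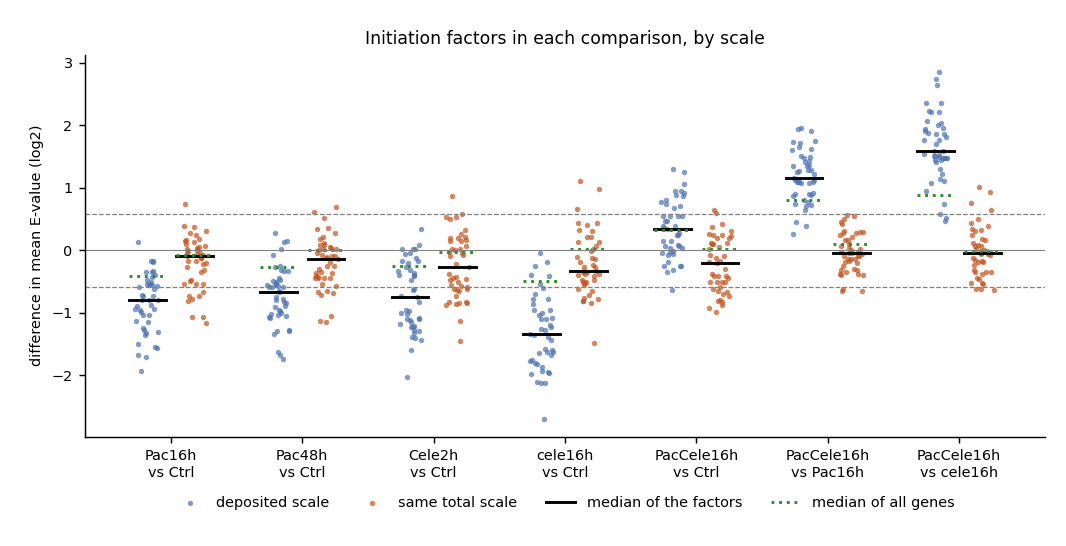
Difference in mean E-value (log2) of each of the 45 initiation factors (points) in the 7 comparisons, with the deposited values and the same-total values side by side. Black bars are medians of the factors, green dotted bars medians of all 9655 genes, and dashed lines the 1.5-fold limit. The deposited medians run from -1.33 in cele16h to 1.59 for PacCele16h against cele16h, whereas the same-total medians lie between -0.33 and -0.05.

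Single members differed widely on the deposited scale. In Pac16h EIF5, EIF2B4 and EIF2B1 were lowest, with differences of -1.94, -1.70 and -1.67. In Pac48h EIF2S1 (-1.74), EIF5 (-1.68) and EIF2B2 (-1.62) were lowest, and in Cele2h EIF5 (-2.02), EIF2B2 (-1.59) and EIF4E (-1.44). In cele16h EIF2S1 (-2.71), EIF3K (-2.13) and EIF4A1 (-2.12) were lowest. EIF4EBP1 was the exception among abundant members there, at 0.16 above Ctrl in cele16h and 0.44 above it in Cele2h. In the combination EIF2AK1 (1.34), EIF4EBP3 (1.32) and EIF4A2 (1.29) were highest. Against cele16h the combination was highest over EIF3H (2.86), EIF3F (2.74) and EIF3E (2.65), and against Pac16h over EIF4EBP1 (2.31), EIF1 (1.96) and EIF4E (1.95).

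At the same total most of this shift was gone and individual genes stood out. In Pac16h 8 of the 45 factors were lower past the limit and 1, EIF4B, was higher, where 10.0% of all genes were lower and 1.4% higher. In Pac48h 7 were lower and 2 higher (5.78% and 3.28% of all genes), in Cele2h 14 and 1 (8.12% and 3.31%), in cele16h 9 and 3 (7.95% and 7.37%), and in PacCele16h 11 and 2 (5.8% and 5.96%). Restricted to mean same-total E-values of at least 2 (2948 genes, 35 factors), the lower share was 19.4% of genes and 7 factors in Pac16h, 12.8% and 7 in Pac48h, 17.4% and 13 in Cele2h, 18.4% and 8 in cele16h, and 12.1% and 10 in PacCele16h. The share of lower factors was closest to that of such genes in Pac16h and furthest above it in Cele2h. Median differences of the 45 factors were -0.09 in Pac16h, -0.14 in Pac48h, -0.26 in Cele2h, -0.33 in cele16h and -0.20 in PacCele16h, beside -0.07, 0.00, -0.02, 0.03 and 0.02 for all genes.

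Across the 5 conditions set against Ctrl at the same total, 2 of the 45 factors were lower past the limit in all 5, EIF2S1 and EIF5A (1.26% of all 9655 genes were), and 19 were past it in none (69.8% of all genes). Neither EIF2S1 nor EIF5A kept this in all 5 under every alternative, since EIF2S1 came within the limit under some in Pac16h, Cele2h and PacCele16h (nearest to 0 at -0.43, -0.47 and -0.53) and EIF5A in Pac48h (-0.50). No factor was past it both ways. The sign of the difference was negative in all 5 for 20 factors (21.1% of all genes) and positive in all 5 for 6 (19.2% of all genes). The 5 comparisons share the control cells and are not independent, and why 1 sign in all 5 was this common among genes was not tested. The 6 were EIF2S2, EIF2S3, EIF3L, EIF4A2, EIF4B and EIF4G3.

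**Figure D2:**
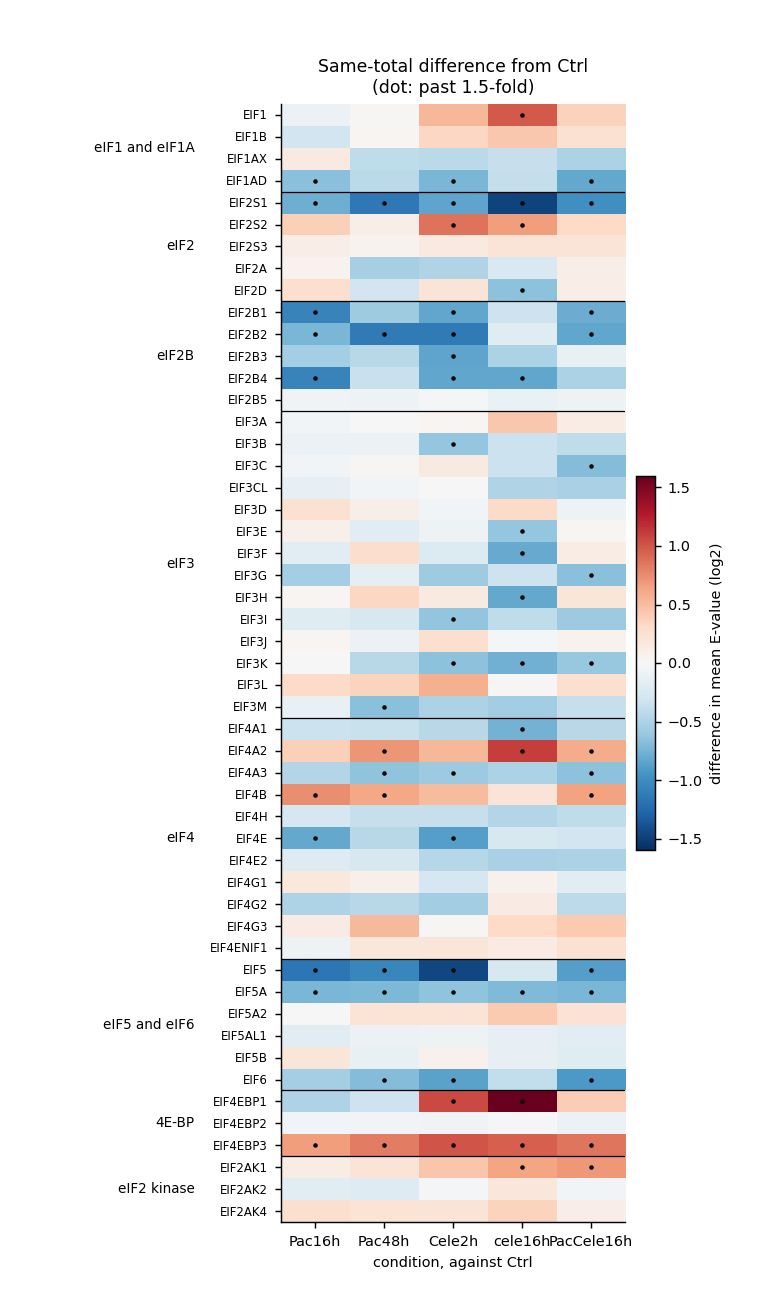
Same-total difference in mean E-value (log2) from Ctrl for the 51 members (rows, by role) in the 5 drug conditions (columns), with a dot where the difference is past 1.5-fold. EIF2S1, EIF5A and most eIF2B subunits are blue (lower) throughout, and EIF4A2, EIF4B and EIF4EBP3 red (higher); EIF4EBP1 in cele16h is the strongest red at 1.58.

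As a share of a cell's summed N, in which the spike-in factor cancels, the 45 factors together held a median of 1.33% in Ctrl cells (range over cells 0.833% to 1.61%), 1.09% in Pac16h, 1.08% in Pac48h, 1.06% in Cele2h, 1.18% in cele16h and 1.04% in PacCele16h. Only 2 of 56, 3 of 53, 0 of 63, 7 of 61 and 1 of 59 cells in these 5 conditions were above the Ctrl median. The eIF5 and eIF6 group, in which EIF5A dominates, held 0.43% in Ctrl and between 0.249% in PacCele16h and 0.295% in cele16h with drugs. eIF3 held 0.415% in Ctrl, 0.405% in Pac16h and 0.337% in cele16h. The eIF1 and eIF1A group went the other way in the celecoxib conditions, from 0.114% in Ctrl to 0.150% in Cele2h and 0.189% in cele16h, and 58 of 61 cele16h cells were above the Ctrl median.

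**Figure D3:**
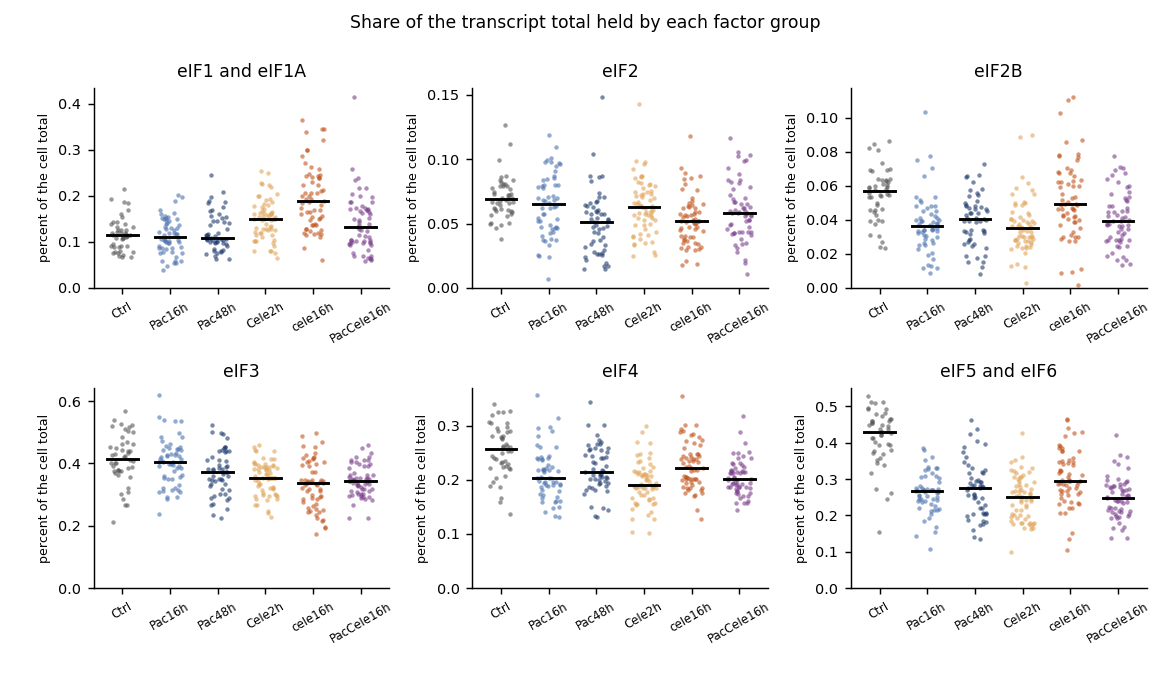
Percent of each cell's summed N held by the 6 factor groups, 1 point per cell, with the median of each condition as a black bar. The eIF5 and eIF6 group is below Ctrl in every drug condition (0.43% against at most 0.295%), and eIF1 and eIF1A are highest in cele16h (0.189%).

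eIF1 and eIF1A group. EIF1, the start-codon fidelity factor, had mean same-total E-values of 6.19 ± 0.50 in Ctrl, 6.10 ± 0.64 in Pac16h, 6.21 ± 1.07 in Pac48h, 6.72 ± 0.46 in Cele2h, 7.17 ± 0.56 in cele16h and 6.56 ± 0.72 in PacCele16h. It was past the limit in cele16h, 0.98 above Ctrl, with 60 of 61 cells above the Ctrl median. Cells of all conditions overlapped. EIF1B, its copy, was at 3.57 in Ctrl and 4.00 in cele16h, within the limit, and the median log2 ratio of EIF1 to EIF1B stayed between 2.67 and 3.08 in all 6 conditions. EIF1AX, the eIF1A of the X chromosome, was within the limit against Ctrl throughout, between -0.50 and 0.14. EIF1AD, whose protein shares a domain with eIF1A, was lower in Pac16h (-0.67), Cele2h (-0.73) and PacCele16h (-0.82), and had an E-value above 0 in 76.1% of Ctrl cells (exact 95% interval 61.2% to 87.4%) and in 45.8% of PacCele16h cells (32.7% to 59.2%).

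eIF2. EIF2S1, the alpha subunit that the stress kinases phosphorylate, had mean same-total E-values of 5.42 ± 0.49 in Ctrl, 4.63 ± 1.49 in Pac16h, 4.28 ± 1.28 in Pac48h, 4.58 ± 1.12 in Cele2h, 3.93 ± 1.58 in cele16h and 4.43 ± 1.35 in PacCele16h. The differences from Ctrl were -0.78, -1.14, -0.84, -1.49 and -0.99, and the spread over cells was wider than in Ctrl in every drug condition, as the SDs show. The number of cells above the Ctrl median was 20 of 56 in Pac16h, 10 of 53 in Pac48h, 11 of 63 in Cele2h, 6 of 61 in cele16h and 9 of 59 in PacCele16h. Over the alternative ways of averaging, the difference ranged from -0.97 to -0.43 in Pac16h, from -0.93 to -0.47 in Cele2h and from -1.13 to -0.53 in PacCele16h, in each case to within the limit. It stayed past the limit in Pac48h (-1.24 to -0.82) and cele16h (-1.86 to -1.01). EIF2S2, the beta subunit, went the other way, from 2.98 ± 0.68 in Ctrl to 3.86 ± 0.60 in Cele2h and 3.65 ± 0.70 in cele16h, past the limit in both (0.87 and 0.66). EIF2S3, the gamma subunit and 1 of the TOP-start factors, was between 0.06 and 0.21 above Ctrl in all 5. Within single cells the median log2 ratio of EIF2S1 to EIF2S2 was 2.58 in Ctrl, 1.57 in Pac16h, 1.18 in Pac48h, 1.01 in Cele2h, 0.85 in cele16h and 1.47 in PacCele16h, that is, from 5.97-fold to 1.80-fold, over the cells with both above 0. EIF2A and EIF2D are not subunits of eIF2 but carry initiator tRNA in other ways. EIF2A was within the limit in all 5, and EIF2D was lower only in cele16h (-0.66), where it was above 0 in 41.0% of cells against 73.9% in Ctrl.

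eIF2B. All 5 subunits of the exchange factor were below Ctrl in all 5 conditions at the same total, by amounts that differed. The regulatory subunits EIF2B1 (alpha), EIF2B2 (beta) and EIF2B4 (delta) were past the limit in 3, 4 and 3 conditions, with EIF2B1 at -1.07 in Pac16h, -0.83 in Cele2h and -0.79 in PacCele16h, EIF2B2 at -0.73 in Pac16h, -1.13 in Pac48h, -1.13 in Cele2h and -0.83 in PacCele16h, and EIF2B4 at -1.07 in Pac16h, -0.83 in Cele2h and -0.84 in cele16h. EIF2B3 (gamma) was past the limit in Cele2h (-0.84), as far below Ctrl there as EIF2B1 and EIF2B4, and at -0.51 in cele16h, further below than EIF2B1 (-0.33) and EIF2B2 (-0.19). EIF2B5, the catalytic epsilon subunit, was between -0.11 and -0.03 in all 5, with a same-total mean of 1.84 ± 1.17 in Ctrl. Part of these differences lay in cells with no signal: EIF2B2 was above 0 in 95.7% of Ctrl cells but in 77.4% of Pac48h and 77.8% of Cele2h cells. The cele16h difference of EIF2B4 ranged from -1.48 to -0.09 over the alternatives run, and that of EIF2B3 in Cele2h from -1.65 to -0.20. Those of EIF2B2 in Pac16h (-1.16 to -0.38), EIF2B4 in Cele2h (-1.30 to -0.47) and EIF2B1 in PacCele16h (-1.26 to -0.51) also came within the limit. The other eIF2B differences past the limit stayed past it.

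eIF3. The 14 genes had a median same-total difference of -0.04 in Pac16h, -0.06 in Pac48h, -0.06 in Cele2h, -0.38 in cele16h and -0.22 in PacCele16h. EIF3A, the largest subunit, was between -0.05 and 0.43 from Ctrl. In cele16h 4 were lower past the limit: EIF3H (-0.81), EIF3F (-0.81), EIF3K (-0.77) and EIF3E (-0.62). EIF3F and EIF3H form the pair of MPN-domain subunits, and in cele16h both were spread widely over cells, with 3.54 ± 1.78 for EIF3F (Ctrl 4.35 ± 0.99) and 3.53 ± 1.64 for EIF3H (Ctrl 4.34 ± 0.69). Their medians over cells were closer to Ctrl than their means (3.93 against 4.37 for EIF3F, 4.06 against 4.33 for EIF3H), and 27 and 23 of 61 cells were above the Ctrl median. Over the alternatives the differences ranged from -1.11 to -0.29 for EIF3F, from -1.23 to -0.27 for EIF3H and from -0.69 to -0.40 for EIF3E, in each case to within the limit. EIF3K, a small subunit with a TOP start, had a tighter spread, 6.05 ± 0.39 in Ctrl and 5.28 ± 0.72 in cele16h. It was also lower in Cele2h (-0.65) and PacCele16h (-0.61) but at 0.01 from Ctrl in Pac16h. Its difference stayed past the limit under every alternative in cele16h but not in Cele2h (nearest to 0 at -0.55) or PacCele16h (-0.54). Past the limit in 1 condition each were EIF3I and EIF3B in Cele2h (-0.63 and -0.61), EIF3M in Pac48h (-0.66), and EIF3C and EIF3G in PacCele16h (-0.70 and -0.67). Each of these came within the limit under some alternative (nearest to 0 at -0.57, -0.53, -0.45, -0.53 and -0.54 in this order). EIF3I, EIF3B, EIF3M and EIF3G were below Ctrl in all 5, with EIF3I between -0.63 and -0.20, and whether the conditions differ was not tested. EIF3L was above Ctrl in all 5, up to 0.57 in Cele2h, within the limit.

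eIF4 group. The helicase pair EIF4A1 and EIF4A2 differed from Ctrl in opposite directions. EIF4A1 had mean same-total E-values of 5.95 ± 0.56 in Ctrl, 5.60 ± 0.98 in Pac16h, 5.60 ± 0.95 in Pac48h, 5.51 ± 0.57 in Cele2h, 5.19 ± 0.84 in cele16h and 5.51 ± 0.61 in PacCele16h, lower past the limit in cele16h (-0.76). EIF4A2 had 3.76 ± 1.04 in Ctrl, 4.14 ± 1.06 in Pac16h, 4.46 ± 1.13 in Pac48h, 4.29 ± 0.94 in Cele2h, 4.86 ± 0.89 in cele16h and 4.35 ± 0.90 in PacCele16h, higher past the limit in Pac48h (0.70), cele16h (1.11) and PacCele16h (0.59). In single cells with both above 0, the median log2 ratio of EIF4A1 to EIF4A2 was 2.35 in Ctrl, 1.34 in Pac16h, 1.10 in Pac48h, 1.27 in Cele2h, 0.41 in cele16h and 1.11 in PacCele16h, or from 5.10-fold to 1.33-fold. EIF4A2 exceeded EIF4A1 in 2 of 45 Ctrl cells and in 20 of 61 cele16h cells, and 59 of 61 cele16h cells were below the Ctrl median of the ratio. The ranges of single cells still overlapped in all conditions. EIF4A2 starts with a TOP tract and EIF4A1 does not, as shown above.

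EIF4B, the eIF4A cofactor with the shortest of the tracts shown, had 1.71 ± 0.90 in Ctrl, 2.45 ± 0.74 in Pac16h, 2.33 ± 0.86 in Pac48h, 2.21 ± 0.90 in Cele2h, 1.91 ± 0.99 in cele16h and 2.35 ± 0.96 in PacCele16h at the same total. It was past the limit in the 3 paclitaxel conditions (0.74, 0.62 and 0.65), with 50 of 56, 41 of 53 and 48 of 59 cells above the Ctrl median. EIF4H, the related cofactor, was between -0.47 and -0.26. EIF4E, the cap-binding protein, was lower in Pac16h (-0.82) and Cele2h (-0.88), with means of 4.84 ± 1.27 and 4.78 ± 0.96 against 5.66 ± 0.64 in Ctrl, and within the limit in Pac48h, cele16h and PacCele16h. EIF4E2, a cap-binding relative that represses translation, was within the limit throughout. The scaffolds EIF4G1 (between -0.26 and 0.17), EIF4G2 (between -0.56 and 0.13) and EIF4G3 (between 0.02 and 0.52) were also within it. EIF4A3, a helicase of the exon junction complex, was lower in Pac48h (-0.65), Cele2h (-0.59) and PacCele16h (-0.66), and EIF4ENIF1, which carries eIF4E into the nucleus, was within the limit.

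eIF5 and eIF6 group. EIF5A was below Ctrl by a like amount in the 5 conditions. Its mean same-total E-values were 7.96 ± 0.40 in Ctrl, 7.22 ± 0.46 in Pac16h, 7.24 ± 1.15 in Pac48h, 7.32 ± 0.43 in Cele2h, 7.25 ± 0.56 in cele16h and 7.23 ± 0.38 in PacCele16h. The differences of -0.74, -0.72, -0.64, -0.71 and -0.73 lay close together, and above the Ctrl median were 0 of 56, 2 of 53, 2 of 63, 0 of 61 and 0 of 59 cells in this order. Single cells still overlapped, since Ctrl cells reached down to 6.17 and drug-treated cells lay between 0 and 8.37 in Pac48h and between 4.83 and 8.02 in cele16h. The Pac48h value rests in part on 1 cell with EIF5A at 0: that cell had 13 of the 45 factors at 0, where the median Pac48h cell had 3, and without it the difference was -0.58, just inside the limit. EIF5, the GTPase-activating factor, was lower in Pac16h (-1.16), Pac48h (-1.05), Cele2h (-1.46) and PacCele16h (-0.88) but not in cele16h (-0.26). Its means were 6.60 ± 0.42 in Ctrl, 5.44 ± 1.56 in Pac16h, 5.55 ± 1.14 in Pac48h, 5.14 ± 1.11 in Cele2h, 6.34 ± 0.93 in cele16h and 5.72 ± 0.80 in PacCele16h, and 3 of 63 Cele2h cells but 24 of 61 cele16h cells were above the Ctrl median. EIF6 was lower in Pac48h (-0.69), Cele2h (-0.86) and PacCele16h (-0.92). EIF5B was between -0.20 and 0.19, and EIF5A2 and EIF5AL1 were within the limit at low levels.

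**Figure D4:**
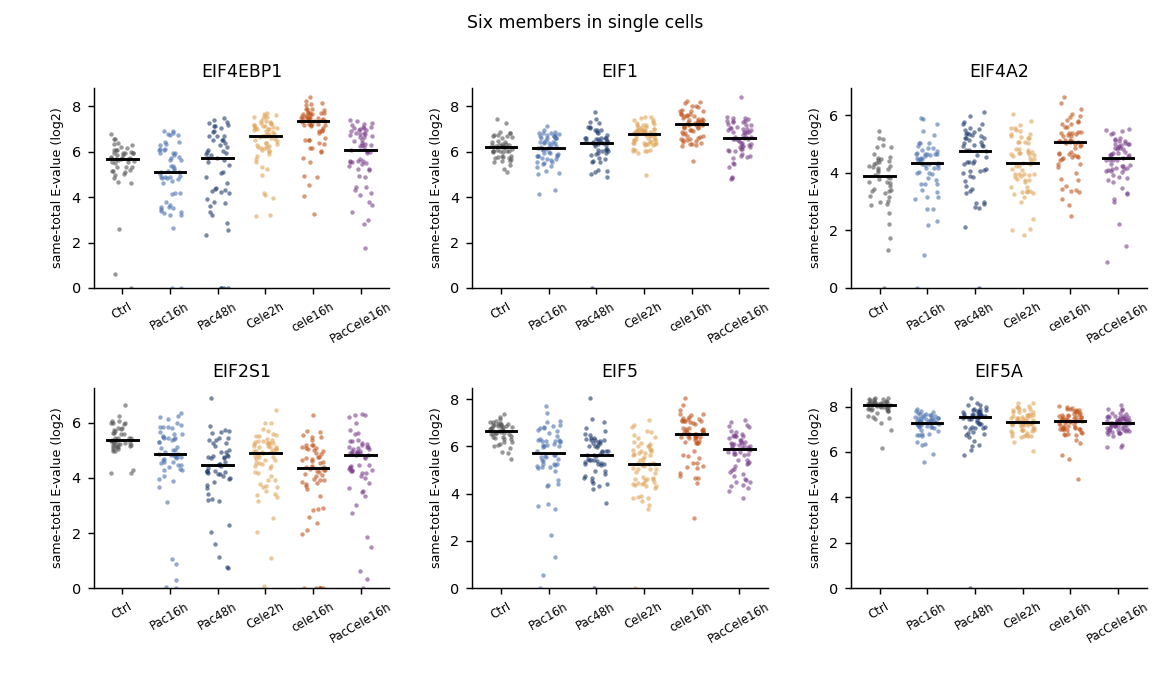
Same-total E-values (log2) of EIF4EBP1, EIF1, EIF4A2, EIF2S1, EIF5 and EIF5A, 1 point per cell, with the median of each condition as a black bar. EIF4EBP1, EIF1 and EIF4A2 are highest in cele16h (medians 7.33, 7.21 and 5.08), EIF2S1 is below Ctrl with a long lower tail in each drug condition, EIF5 in cele16h (median 6.51) is near Ctrl (6.66), and EIF5A has its medians below Ctrl in each drug condition (at most 7.56 against 8.06), with overlapping cells and 1 Pac48h cell at 0.

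4E-binding proteins. EIF4EBP1 had mean same-total E-values of 5.40 ± 1.29 in Ctrl, 4.92 ± 1.49 in Pac16h, 5.07 ± 2.00 in Pac48h, 6.46 ± 1.02 in Cele2h, 6.99 ± 1.03 in cele16h and 5.80 ± 1.28 in PacCele16h. It was higher past the limit in Cele2h (1.05) and cele16h (1.58), the largest same-total difference of any member, and above the Ctrl median in 53 of 63 and 55 of 61 cells. In the combination it was 0.40 above Ctrl, 0.88 above Pac16h and 1.19 below cele16h (a difference of -1.19). The median log2 ratio of EIF4EBP1 to EIF4E in cells with both above 0 was -0.09 in Ctrl, 0.33 in Pac16h, 0.54 in Pac48h, 1.71 in Cele2h, 1.68 in cele16h and 0.66 in PacCele16h, and 60 of 63 Cele2h and 57 of 61 cele16h cells were above the Ctrl median of the ratio. For EIF4EBP2 the difference was between -0.09 and -0.01. EIF4EBP3 was past the limit in all 5 conditions (0.67, 0.82, 1.00, 0.95 and 0.85), but at a low level, with a Ctrl mean of 0.43, and as a share of cells: it was above 0 in 21.7% of Ctrl cells (exact 95% interval 10.9% to 36.4%), 39.3% of Pac16h (26.5% to 53.2%), 47.2% of Pac48h (33.3% to 61.4%), 52.4% of Cele2h (39.4% to 65.1%), 44.3% of cele16h (31.5% to 57.6%) and 44.1% of PacCele16h cells (31.2% to 57.6%). Since Ctrl was under the 30% detection limit, EIF4EBP3 is listed through the drug conditions in which it was detected more often, which partly fixes the direction of its differences. These intervals cover counting error only.

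eIF2 kinases. EIF2AK1, the heme-regulated kinase, was higher past the limit in cele16h (0.63) and PacCele16h (0.70), with means of 2.43 ± 0.81 in Ctrl, 3.06 ± 0.90 and 3.13 ± 0.81, and above the Ctrl median in 49 of 61 and 51 of 59 cells. EIF2AK2, the kinase activated by double-stranded RNA, was between -0.21 and 0.19, and EIF2AK4, which senses uncharged tRNA, between 0.11 and 0.35. The 3 kinases together held 0.0146% of summed N in Ctrl and between 0.0174% in Pac48h and 0.0233% in cele16h with drugs.

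**Figure D5:**
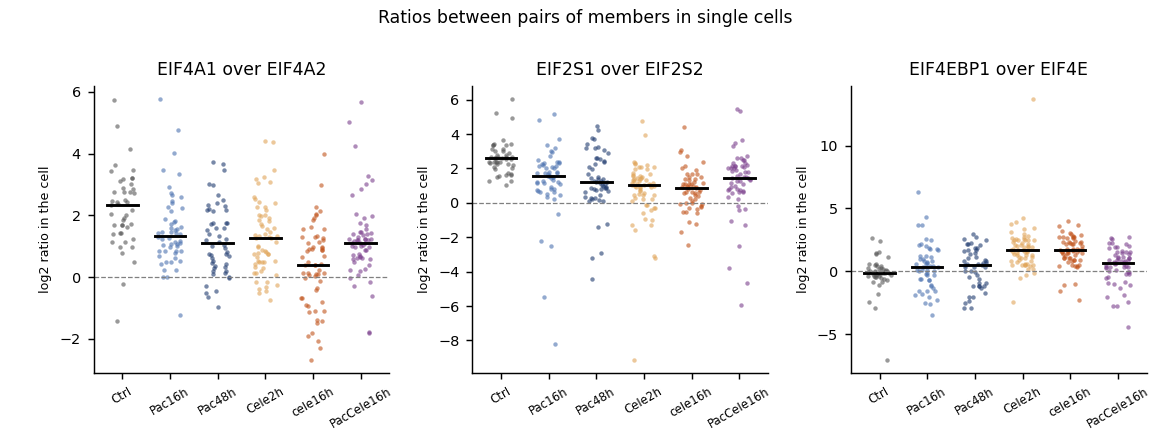
Log2 ratio of EIF4A1 to EIF4A2, EIF2S1 to EIF2S2 and EIF4EBP1 to EIF4E in single cells with both genes above 0, with the median of each condition as a black bar; the dashed line is equal levels. The first ratio is lowest in cele16h (0.41 against 2.35 in Ctrl), the second is below Ctrl (2.58) in every drug condition, and the third is highest in Cele2h and cele16h (1.71 and 1.68).

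The effect of each drug in the presence of the other was read from the combination against each single drug. At the same total, PacCele16h against Pac16h, which differ by celecoxib, had 0 factors higher and 3 lower past the limit (EIF3C, EIF1AX and EIF3K at -0.65, -0.64 and -0.62), where 9.57% of all genes were higher and 1.64% lower. Celecoxib for 16 h without paclitaxel (cele16h against Ctrl) had 3 higher and 9 lower, where 7.37% of all genes were higher and 7.95% lower. PacCele16h against cele16h, which differ by paclitaxel, had 4 higher (EIF3H 1.01, EIF3F 0.93, EIF2D 0.76 and EIF3E 0.65) and 3 lower (EIF2B2 -0.64, EIF5 -0.62 and EIF1 -0.61), where 5.03% of all genes were higher and 4.39% lower. Under some alternatives EIF3F, EIF2D, EIF3E, EIF5 and EIF1 came within the limit (nearest to 0 at 0.52, 0.45, 0.33, -0.56 and -0.54). So did EIF3C, EIF1AX and EIF3K against Pac16h (-0.52, -0.57 and -0.55), whereas EIF3H and EIF2B2 stayed past it. The subunits EIF3F, EIF3H and EIF3E, low in cele16h, were within 0.20 of Ctrl in the combination.

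The factors with a TOP start had higher median differences at the same total than those without it in all 5 conditions set against Ctrl, which share the same control cells. The median difference of the 9 was 0.10 in Pac16h, 0.06 in Pac48h, -0.04 in Cele2h, -0.24 in cele16h and 0.11 in PacCele16h, and that of the 29 others -0.26, -0.35, -0.46, -0.33 and -0.42. Lower past the limit were 0 of the 9 and 8 of the 29 in Pac16h, 1 and 6 in Pac48h, 1 and 13 in Cele2h, 3 and 4 in cele16h, and 1 and 9 in PacCele16h. In cele16h the share was thus larger among the 9. Of all genes 10.0%, 5.78%, 8.12%, 7.95% and 5.8% were lower past the limit in these conditions, in the same order. Factors for which no promoter was found, among them EIF3H, EIF3E and EIF2S2, are in neither set. For PacCele16h the medians of the 9 and the 29 were -0.09 and -0.03 against Pac16h, the other way round, and 0.18 and -0.07 against cele16h. The 9 were not alike, since in Pac48h EIF4A2 (0.70) and EIF4B (0.62) were higher past the limit, EIF2S3 was at 0.06 and EIF3M was lower (-0.66). Both sets hold genes of different levels, and no test was made.

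Other genes of translation were looked up in lists drawn up for this purpose, at the same total. Of 29 initiation partners and regulators listed, 2 were higher and 3 lower past the limit in Pac16h, 1 and 0 in Pac48h, 2 and 2 in Cele2h, 3 and 4 in cele16h, and 3 and 2 in PacCele16h. Of all genes 1.4% were higher and 10.0% lower in Pac16h, 3.28% and 5.78% in Pac48h, and 3.31% and 8.12% in Cele2h. In cele16h these shares were 7.37% and 7.95%, and in PacCele16h 5.96% and 5.8%. The same shares stand beside the lists that follow. PDCD4, which binds eIF4A and blocks it, was higher in all 5, by 0.90, 1.17, 1.33, 1.28 and 1.56. BZW1, an eIF5 mimic, was at -0.85, -0.57, -1.27, -0.65 and -0.39. IMPACT, an inhibitor of GCN1 and so of EIF2AK4 activation, was 0.80 higher in Cele2h, 0.84 in cele16h and 0.88 in PacCele16h. Of 14 elongation and termination factors, between 1 and 2 were higher and between 1 and 3 lower in each condition, with EEF2, the translocase, at 0.92, 0.82, 1.32, 0.55 and 0.77. Of 5 genes known to respond to eIF2 phosphorylation, 0 were past the limit in Pac16h, 3 were higher in Pac48h, 5 in Cele2h, 5 in cele16h and 4 in PacCele16h. ATF4, the transcription factor translated under eIF2 phosphorylation, was at -0.25, -0.01, 1.09, 1.18 and 0.40 from Ctrl, and DDIT3, its target, at -0.31, 0.61, 1.96, 2.22 and 1.11. On the deposited scale all 5 were higher past the limit in PacCele16h, with a median of 1.99, where 30.4% of all genes were higher.

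Genes whose 6 condition means at the same total followed those of the 3 members with the largest differences were found among 4026 genes with a range of at least log2 of 1.5. For EIF4EBP1 they were TARS (Pearson r 0.982 over 6 conditions), ATF4 (0.979), EIF1 (0.976), PTGES3L (0.975) and ZNF317 (0.970). For EIF2S1 they were ALYREF (0.995), NCAPG (0.987), PSMD14 (0.984), MTHFD1 (0.984) and AURKA (0.981), and for EIF5 CREB1 (0.993), THG1L (0.991), SHQ1 (0.990), CDCA4 (0.989) and STUB1 (0.988). With 6 points and this many genes, such values are a description. Across the cells of a condition, members of eIF3 were weakly correlated at the same total, with a median r over 78 pairs (EIF3CL left out) of 0.18 in Ctrl and at most 0.07 in the drug conditions.

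The labels number the libraries, and in 2 conditions the cells came from more than 1 block of 96 consecutive numbers. Between blocks 2 and 4 of Pac48h 7 of the 45 factors differed past the limit at the same total (8.28% of all genes did), and between blocks 1 and 3 of PacCele16h 4 did (5.63%). On the deposited scale these counts were 17 in Pac48h (11.5% of all genes) and 7 in PacCele16h (12.9%). The Pac48h differences from Ctrl held in both blocks for EIF2S1 (-1.22 and -1.09), EIF5 (-1.04 and -1.06), EIF2B2 (-1.47 and -0.88) and EIF4A2 (0.70 and 0.70), that is, for 4 of the 9 factors past the limit. The other 5 were past it in 1 block, namely EIF6 (-1.27 and -0.28), EIF5A (-1.00 and -0.52), EIF3M (-0.97 and -0.45), EIF4A3 (-0.85 and -0.50) and EIF4B (0.40 and 0.77). In PacCele16h 6 of 13 factors were past the limit in both blocks, namely EIF2S1 (-0.96 and -1.01), EIF2B1 (-0.86 and -0.70), EIF2B2 (-0.85 and -0.80), EIF5 (-0.82 and -0.95), EIF5A (-0.71 and -0.75) and EIF6 (-0.82 and -1.04). The other 7 were past it in 1 block, namely EIF1AD (-0.50 and -1.25), EIF3C (-0.80 and -0.56), EIF3G (-0.77 and -0.54), EIF3K (-0.66 and -0.54), EIF4A2 (0.64 and 0.53), EIF4A3 (-0.55 and -0.80) and EIF4B (0.77 and 0.48). The kinase EIF2AK1 was past it in both (0.67 and 0.73). The other 4 conditions each had 1 block: Ctrl block 4, Cele2h block 2, Pac16h block 1 and cele16h block 3. Only the 31 block 4 cells of Pac48h, the second value of each Pac48h pair above, therefore shared a block with Ctrl. At the same total 7 factors were past the limit in them, and 12 in the 22 cells of block 2. All other drug-treated cells were in a different block from Ctrl, so that block and condition cannot be told apart in their differences from Ctrl. Pac16h shared block 1, and cele16h block 3, with part of the PacCele16h cells. At the same total 2 factors were past the limit in the block 1 cells of PacCele16h against Pac16h, where all its cells gave 3. In its block 3 cells against cele16h 6 were, where all its cells gave 7.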

How the data were processed

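For adapter trimming the authors used Trim Galore, and for TPM RSEM 1.3.0 with Bowtie2 as aligner, against hg38 transcripts (GENCODE 28) and 3 spike-ins. Each cell was scaled to its most abundant spike-in. Cells poor in housekeeping transcripts were dropped, as were genes without signal in 30% of the cells of any condition, although 9 listed genes do not pass this limit when counted here. The deposited values are log2 values, log2(N/10 + 1), for 9664 genes and 338 cells. A row of cell states in the same table, the authors' own call, was not used.

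Here N was recovered from the log2 values and each cell was rescaled to the median total for the same-total scale (Python 3.11.15, pandas 2.3.3). Means over cells were differenced for 7 comparisons, without a test, as no replicates of a condition are named. Symbols named include those past the limit at the same total and a fixed core of factors. On the deposited scale they include the 3 lowest members in each single-drug condition and the 3 highest in each comparison of the combination. Members, lists and the search for TOP starts were chosen with earlier results of these data known. The steps were tested on simulated data. No doublet caller was run, since no counts were used. Gene models of GENCODE 44 and RefSeq promoters share the hg38 assembly.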

Additional observations from a re-analysis of the deposited data

Results flagged for a closer look

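On the deposited scale the factors lay on opposite sides in the absence and presence of the other drug. Their median difference for 16 h of celecoxib was -1.33 without paclitaxel (cele16h against Ctrl) and 1.16 with it (PacCele16h against Pac16h), and for 16 h of paclitaxel -0.79 without celecoxib and 1.59 with it. The difference between these effects was not tested, since no replicates of a condition are named. All genes had medians of -0.48, 0.80, -0.41 and 0.88 in the same order, and at the same total the medians of the factors were -0.33, -0.05, -0.09 and -0.05. The summed N of the cells moved with the result, and its part in it was not tested.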

How the results depend on the processing

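No paired analysis was possible because the numbers of the cells pair nothing between conditions and no test was made. The count of factors past the limit stayed within 1.5 times the main count under most alternatives. On the deposited scale it did so under every one run. At the same total the main counts of 9 in Pac48h, 12 in cele16h and 13 in PacCele16h became 16, 20 and 20 with a pseudocount of 1 in place of 10. For PacCele16h against Pac16h, 3 factors became 5 with medians over cells, 9 with a pseudocount of 1 and 6 with ratios of linear means. For PacCele16h against cele16h, 7 became 15 with a pseudocount of 1 and 4 with ratios of linear means. Leaving out the 50 most abundant genes, or the members themselves (chosen after seeing the data), from the total moved none of these counts by more than 1.5 times. Without the Pac48h cell that lacked EIF5A (also chosen after seeing the data) 7 factors were past the limit in Pac48h, EIF5A and EIF4A3 no longer among them. Without the PacCele16h cell noted as 0 or debris, 12 factors rather than 13 were past the limit in PacCele16h at the same total. No member past the limit turned its direction. The cause of these moves was not tested.

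Of the 79 member differences past the limit at the same total, 39 were past it the same way under every alternative run, among them those of EIF4EBP1, EIF5 against Ctrl, EIF1 in cele16h and EIF4A2 in Pac48h and cele16h. EIF4EBP3 had a difference of 0.00 by medians over cells in 4 of the 5 conditions, as most cells there had no signal. With no replicates of a condition named, neither the spread between replicates nor the depth in reads is known.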
